A study of Homo sapiens with 12 samples.

Results

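Keratinocyte differentiation and cornification genes were followed in 2 head and neck squamous carcinoma lines after RNA interference against TP63. The set holds 38 genes, listed by symbol. They were grouped under the programme that turns a basal keratinocyte into a flattened, dead cell of the surface. The part of each gene in that programme was not tested here. All 38 were measured, among 18404 genes on the arrays. They comprised 4 suprabasal keratins, 13 precursors or scaffold proteins of the cornified envelope, 4 crosslinking enzymes or corneodesmosome proteins, 6 calcium-binding proteins, 2 protease inhibitors, 5 membrane or secreted proteins and 4 transcription factors.

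As a keratinocyte leaves the basal layer it exchanges KRT5 and KRT14 for other keratins, which are KRT1 and KRT10 in skin and KRT4 and KRT13 in moist oral and pharyngeal lining. A protein shell, the cornified envelope, is then built under the membrane: envoplakin and periplakin form a scaffold, transglutaminases crosslink involucrin, small proline-rich (SPRR) proteins and loricrin onto it, and filaggrin bundles the keratin filaments. p63, the product of TP63, is a transcription factor of the p53 family that maintains basal keratinocytes and is also needed for stratified epithelium to form. KLF4, GRHL1, OVOL1 and ZNF750 are transcription factors of the later steps.

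Total RNA of 12 samples was hybridised to single-colour expression arrays, with 3 arrays in each of 4 groups. The groups were FaDU cells given lentiviral shRNA against TP63 (FaDU shTP63), FaDU cells given a control vector (FaDU shControl), and the same pair in JHU-029 cells (JHU-029 shTP63 and JHU-029 shControl). Both are established cancer lines. RNA was taken 72 hours after lentiviral knockdown in every group, so control and knockdown cells had both been through a lentiviral treatment. The labels allow several culture media without saying which line grew in which, do not give the number of shRNA sequences, and do not say whether replicates were separate cultures. The p-values therefore measure only the spread between these arrays, which may be technical.

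All values are log2 of the deposited linear intensities, on which 1 unit is a doubling. The median of each array lay between 6.46 and 6.56. Precision is limited by having 3 arrays a group. A gene was called past the threshold at a limma p below 0.05 after Benjamini-Hochberg adjustment over all 18404 genes. TP63 RNA was not analysed here, so the depth of the knockdown has no direct measure, and the marker counts that follow do not give one. Of a list of 12 basal keratinocyte markers, chosen with earlier results of these data known, 9 were measured. In FaDU shTP63 cells 7 of the 9 fell, against 14.2% of all genes. The mean of the 9 was 9.42 to 9.47 in FaDU shTP63 arrays against 10.05 to 10.08 in FaDU shControl arrays. In JHU-029 only DLK2 of the 9 fell by limma, against 1.35% of all genes. At an unadjusted p under 0.05, 4 of the 9 were lower there and 1 was higher. The mean of the 9 was 11.24 to 11.32 in JHU-029 shTP63 arrays and 11.35 to 11.43 in JHU-029 shControl arrays.

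Markers of other cells were read beside the results. Of 10 simple epithelium markers, 6 rose in FaDU shTP63 cells, with array means of 9.68 to 9.80 against 9.25 to 9.35 in FaDU shControl cells. In JHU-029 2 of the 10 rose, with array means of 7.38 to 7.44 in shTP63 cells and 7.28 to 7.40 in shControl cells. Of all genes, 12.4% rose in FaDU and 1.8% in JHU-029. Array means of the fibroblast, immune, endothelial and melanocyte lists all lay below the median of all arrays, 6.52. In FaDU shTP63 cells 0 of 8 fibroblast markers passed the limma threshold and 1 was higher at an unadjusted p under 0.05. There, 2 of 7 immune markers (CD14 and LYZ), 1 of 6 endothelial markers (CDH5) and 1 of 4 melanocyte markers (MITF) rose. These small counts stand against the 12.4% of all genes that rose in FaDU. CDH5, the endothelial cadherin, was above that median, with means of 9.69 in FaDU shTP63 and 8.69 in FaDU shControl arrays. By limma, no gene of these 4 lists passed in JHU-029, where 1 fibroblast marker was higher and 1 immune marker lower at an unadjusted p under 0.05. The part of these markers in the results below was not tested, and fewer cells of a type and less RNA per cell cannot be told apart in bulk RNA.

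Promoter sequences of 8 members are shown. They are 4 SPRR genes that were lower in FaDU than in JHU-029 control cells, and FLG, SCEL, EMP1 and GRHL1. The last 4 rose after knockdown in JHU-029. Members that passed after knockdown only in FaDU are not shown. Each sequence is the 250 bases before the gene's start in RefSeq on GRCh38.p14, 5′ to 3′ on the gene's own strand. Capitals mark matches to TGANTCA, where N is any base. This pattern is wider than TGAGTCA or TGACTCA, the usual AP-1 binding sequences of JUN and FOS proteins. The match in FLG, for example, is TGAATCA. The pattern is its own reverse complement, so 1 search covers both strands.
SPRR1A (chr1:152983831-152984080, plus strand): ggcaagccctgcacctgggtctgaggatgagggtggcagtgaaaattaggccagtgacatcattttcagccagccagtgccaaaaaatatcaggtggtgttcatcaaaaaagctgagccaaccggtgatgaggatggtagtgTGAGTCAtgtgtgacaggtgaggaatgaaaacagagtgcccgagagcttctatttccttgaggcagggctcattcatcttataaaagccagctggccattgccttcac
SPRR1B (chr1:153030953-153031202, plus strand): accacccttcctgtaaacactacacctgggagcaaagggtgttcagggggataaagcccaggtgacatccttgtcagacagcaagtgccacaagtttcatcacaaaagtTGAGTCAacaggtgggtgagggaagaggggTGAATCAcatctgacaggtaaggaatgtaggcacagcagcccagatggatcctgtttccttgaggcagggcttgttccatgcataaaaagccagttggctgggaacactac
SPRR2A (chr1:153057513-153057762, minus strand): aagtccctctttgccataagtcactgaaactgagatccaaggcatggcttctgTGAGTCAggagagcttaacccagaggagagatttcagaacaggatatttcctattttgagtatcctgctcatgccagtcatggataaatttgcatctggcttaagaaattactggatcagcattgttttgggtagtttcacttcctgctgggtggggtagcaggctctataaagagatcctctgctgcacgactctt
SPRR2B (chr1:153071612-153071861, minus strand): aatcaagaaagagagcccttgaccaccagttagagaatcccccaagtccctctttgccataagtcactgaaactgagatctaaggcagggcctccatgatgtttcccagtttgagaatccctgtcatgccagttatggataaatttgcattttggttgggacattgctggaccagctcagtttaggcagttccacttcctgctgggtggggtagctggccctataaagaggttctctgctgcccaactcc
FLG (chr1:152325240-152325489, minus strand): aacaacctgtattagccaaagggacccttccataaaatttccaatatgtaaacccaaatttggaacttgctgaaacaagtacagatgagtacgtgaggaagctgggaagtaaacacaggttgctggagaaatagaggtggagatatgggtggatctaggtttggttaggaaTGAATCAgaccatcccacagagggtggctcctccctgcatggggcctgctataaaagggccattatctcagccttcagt
SCEL (chr13:77535456-77535705, plus strand): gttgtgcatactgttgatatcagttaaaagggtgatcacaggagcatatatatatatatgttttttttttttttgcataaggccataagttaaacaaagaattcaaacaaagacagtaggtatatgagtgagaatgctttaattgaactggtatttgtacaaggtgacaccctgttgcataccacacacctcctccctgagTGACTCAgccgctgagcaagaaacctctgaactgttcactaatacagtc
EMP1 (chr12:13196476-13196725, plus strand): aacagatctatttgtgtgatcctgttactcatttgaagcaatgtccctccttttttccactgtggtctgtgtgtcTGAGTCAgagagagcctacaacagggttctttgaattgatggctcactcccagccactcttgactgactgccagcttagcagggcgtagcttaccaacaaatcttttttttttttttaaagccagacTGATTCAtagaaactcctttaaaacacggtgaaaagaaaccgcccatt
GRHL1 (chr2:9951443-9951692, plus strand): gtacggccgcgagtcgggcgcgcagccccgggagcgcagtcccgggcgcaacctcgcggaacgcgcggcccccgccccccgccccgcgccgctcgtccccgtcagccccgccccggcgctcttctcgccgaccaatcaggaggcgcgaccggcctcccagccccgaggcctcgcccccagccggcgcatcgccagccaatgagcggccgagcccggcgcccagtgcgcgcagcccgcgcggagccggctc
SPRR1A, SPRR2A, FLG and SCEL have 1 match each, SPRR1B and EMP1 have 2 each, and SPRR2B and GRHL1 have none in this window. The match of SPRR1A begins 108 bases before the start and those of SPRR1B at 141 and 111 bases. The match of FLG begins 79 bases before the start, that of SCEL 49 bases, and those of EMP1 175 and 48 bases.

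In FaDU cells, knockdown raised 6 members and lowered 1. SLPI, CEACAM6, GRHL1, PPL, KLF4 and S100A9 rose, by 1.24-fold to 2.47-fold, and KRT13 fell by 1.44-fold. The 7 genes are 18.4% of the 38 members, against 26.6% of all genes tested in the same comparison (12.4% higher and 14.2% lower). The share of members past the threshold was thus below that of the arrays as a whole. By direction, 15.8% of the members rose and 2.63% fell, and no test was made of these shares. With dim genes left out, 6 of 19 members passed (31.6%), against 48.4% of 10205 genes. All 3 knockdown arrays lay above all 3 control arrays in 6 members and below them in 2, against 18.1% of all genes above and 18% below. The median log2 difference of the members was 0.07, against 0.02 for all genes.

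**Figure D1:**
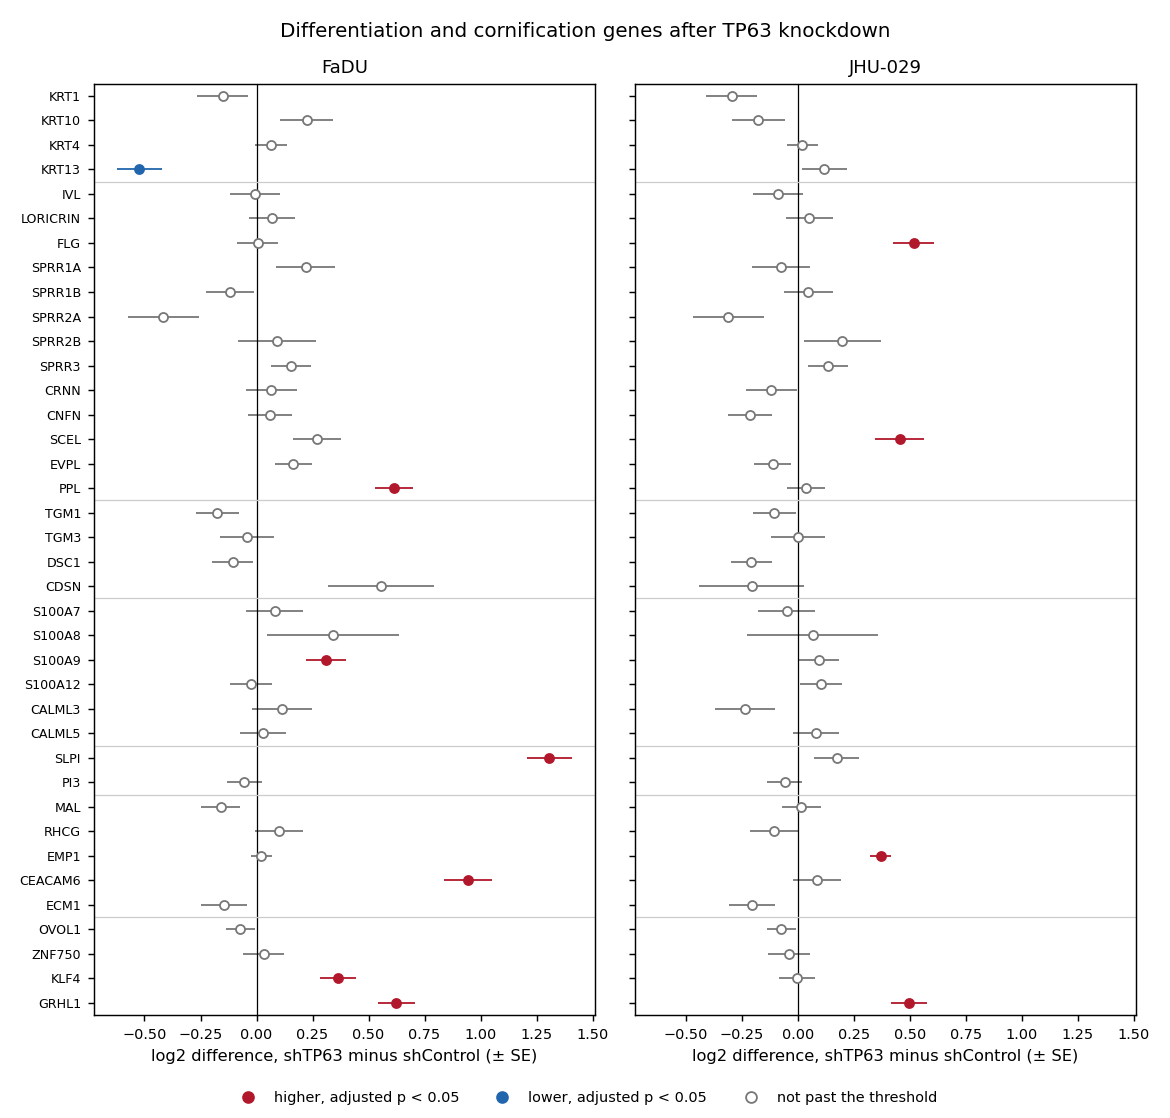
Log2 difference of each of the 38 members, shTP63 minus shControl, with bars of ± SE, in FaDU cells (left) and JHU-029 cells (right); rows are grouped by role from keratins at the top to transcription factors at the bottom. Filled red points rose and filled blue points fell past the threshold: 7 points are filled in FaDU and 4 in JHU-029, and GRHL1 is the one filled in both panels.

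SLPI, which encodes a secreted inhibitor of leukocyte and mast cell serine proteases, had the largest change. It measured 9.92, 9.88 and 9.69 in FaDU shTP63 arrays, against 8.52, 8.52 and 8.54 in FaDU shControl arrays. Every knockdown array lay above every control array, and the log2 difference was 1.31 ± 0.10 (SE, n = 3 each; adjusted p = 1.9e-06). PI3, which encodes the related inhibitor elafin, had a log2 difference of −0.05 (95% interval −0.22 to 0.11).

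CEACAM6, a membrane-anchored adhesion protein of the carcinoembryonic antigen family, measured 5.74, 6.19 and 5.93 in FaDU shTP63 arrays and 5.15, 4.92 and 4.97 in FaDU shControl arrays. The groups did not overlap, and the log2 difference was 0.94 ± 0.11 (SE; adjusted p = 3.6e-05). All these values are below the array median of 6.52. The other membrane or secreted proteins, MAL, RHCG, EMP1 and ECM1, did not pass, with log2 differences between −0.16 and 0.10.

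Among the envelope precursors, PPL was the one of 13 that passed. PPL encodes periplakin, a plakin of the envelope scaffold. It measured 10.44, 10.54 and 10.51 in FaDU shTP63 arrays, against 9.88, 9.88 and 9.89 in FaDU shControl arrays. The control arrays lay almost on top of each other, and the log2 difference was 0.61 ± 0.08 (SE; adjusted p = 0.000156). Its partner in the scaffold, envoplakin, encoded by EVPL, had a log2 difference of 0.16 (95% interval −0.02 to 0.34; adjusted p = 0.178).

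The structural proteins laid onto that scaffold did not pass in FaDU. IVL, encoding involucrin, had a log2 difference of −0.01 (95% interval −0.25 to 0.24), LORICRIN one of 0.07 (−0.16 to 0.30) and FLG, encoding filaggrin, one of 0.00 (−0.19 to 0.20). These intervals are narrower than the changes of SLPI and CEACAM6. SPRR2A had the most negative log2 difference of the precursors. It measured 4.44, 4.39 and 4.30 in FaDU shTP63 arrays and 5.10, 4.67 and 4.62 in FaDU shControl arrays. The groups did not overlap, but the log2 difference of −0.42 ± 0.16 (SE) had an adjusted p of 0.0727. The probe sets of SPRR1A and SPRR1B, and those of SPRR2A and SPRR2B, may each respond to the other's RNA, because these genes are close copies and the probe sequences were not used here.

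The crosslinking and corneodesmosome genes did not pass in FaDU: 0 of 4 by limma, and 1 higher at an unadjusted p under 0.05. That gene was CDSN, encoding corneodesmosin, an adhesive glycoprotein of the outermost layers. CDSN measured 8.55, 7.99 and 8.62 in FaDU shTP63 arrays, against 7.86, 7.30 and 8.33 in FaDU shControl arrays. The groups overlapped, and the log2 difference of 0.55 ± 0.24 (SE) had an adjusted p of 0.108. A second probe set of CDSN gave a difference of 0.01. TGM1 and TGM3, which encode transglutaminases, had log2 differences of −0.17 and −0.04.

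S100A9, a subunit of the calcium-binding protein calprotectin, was the only one of the 6 calcium-binding genes to rise. It measured 7.33, 7.23 and 7.33 in FaDU shTP63 arrays and 6.96, 7.12 and 6.87 in FaDU shControl arrays, a log2 difference of 0.31 ± 0.09 (SE; adjusted p = 0.0203). The call was lost without FaDU shTP63 array 1 or 3, or without FaDU shControl array 1 or 3, with an adjusted p of up to 0.0823. The other subunit, S100A8, measured 5.50, 5.12 and 5.22 in FaDU shTP63 arrays and 4.11, 5.26 and 5.45 in FaDU shControl arrays. A single control array, the first, lay far below the other 2, the SD of the FaDU control group was 0.72, and the difference of 0.34 ± 0.29 (SE) did not pass.

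KRT13, a keratin of the moist stratified lining, was the one member that fell. It measured 7.43, 7.27 and 7.39 in FaDU shTP63 arrays, against 7.95, 7.94 and 7.76 in FaDU shControl arrays. The groups were apart, with a log2 difference of −0.52 ± 0.10 (SE; adjusted p = 0.00188). Both FaDU control arrays with the word "new" in their titles lay above the third, and without that pair the difference was −0.40 and the adjusted p 0.0855. KRT4, its usual partner, had a difference of 0.07, and the epidermal pair KRT1 and KRT10 had differences of −0.15 and 0.22, none past the threshold.

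Of the 4 transcription factors, GRHL1 and KLF4 rose. GRHL1, a grainyhead-like factor that acts on desmosomal cadherin genes, measured 7.75, 7.78 and 7.93 in FaDU shTP63 arrays and 7.21, 7.22 and 7.18 in FaDU shControl arrays, a log2 difference of 0.62 ± 0.08 (SE; adjusted p = 0.000114). KLF4, a zinc finger factor needed for the skin barrier in mice, measured 7.51, 7.66 and 7.47 in FaDU shTP63 arrays and 7.01, 7.33 and 7.22 in FaDU shControl arrays, a log2 difference of 0.36 ± 0.08 (SE; adjusted p = 0.00488). In both genes all knockdown arrays were above all control arrays. ZNF750, a direct target of p63 in keratinocytes, measured 7.17, 7.10 and 6.82 in FaDU shTP63 arrays and 7.13, 6.86 and 7.01 in FaDU shControl arrays. The groups overlapped, and the log2 difference was 0.03 (95% interval −0.17 to 0.23). OVOL1, a zinc finger factor of late differentiation, measured 7.10, 7.19 and 7.11 in FaDU shTP63 arrays and 7.32, 7.12 and 7.18 in FaDU shControl arrays, with a log2 difference of −0.07 (95% interval −0.22 to 0.07).

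**Figure D2:**
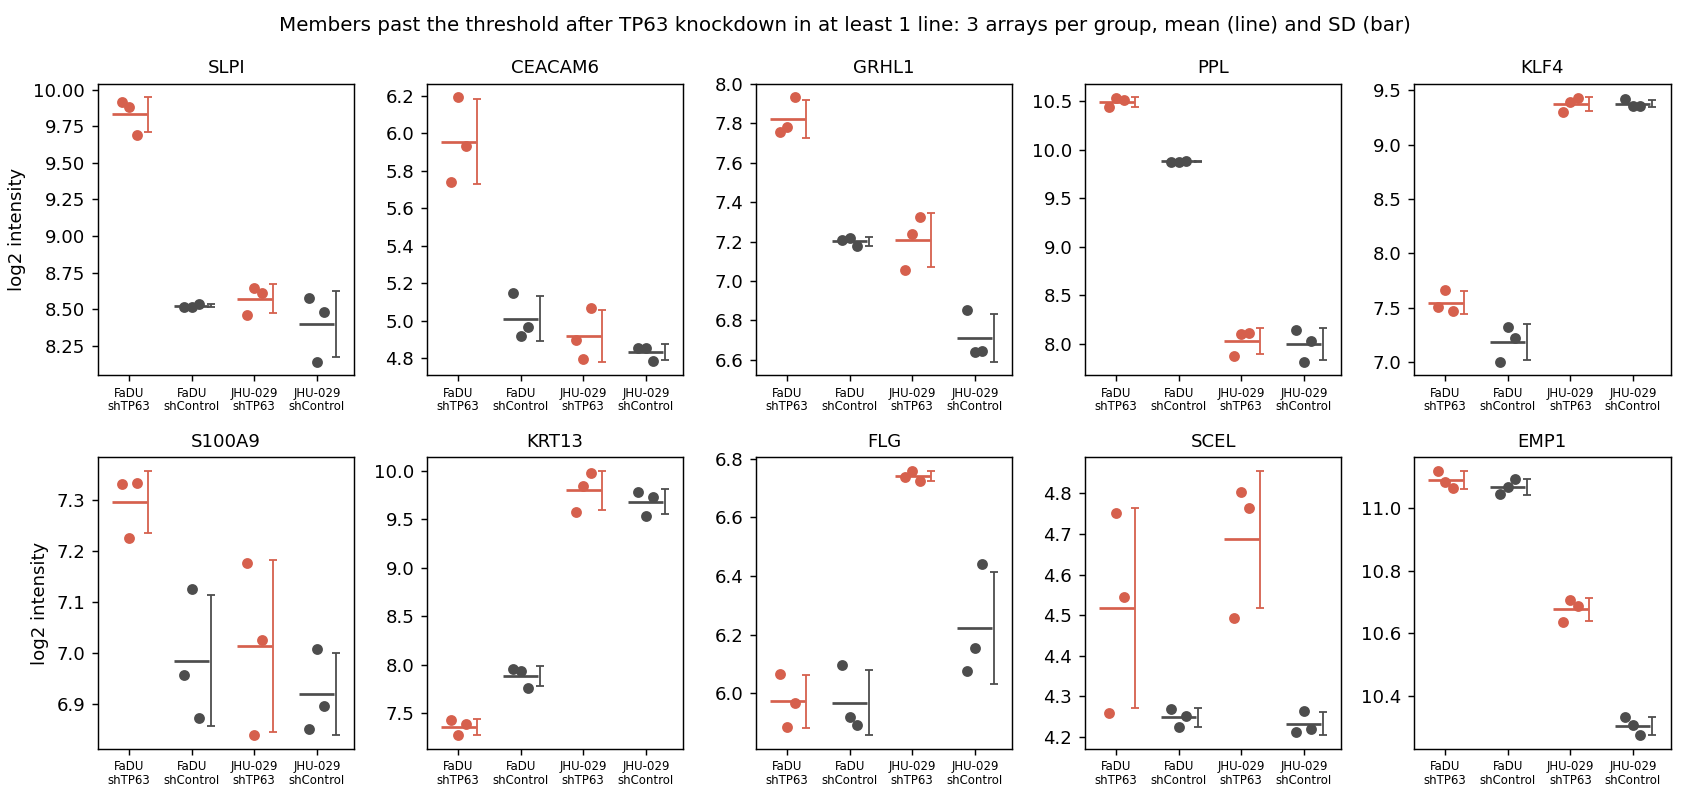
Log2 intensity of the 10 members past the threshold in at least 1 line, 1 point per array, in FaDU shTP63, FaDU shControl, JHU-029 shTP63 and JHU-029 shControl; lines are group means, bars are ± SD (n = 3), and each panel has its own axis, which does not start at 0. SLPI, CEACAM6, PPL, KLF4, S100A9 and KRT13 part the FaDU groups, FLG, SCEL and EMP1 part the JHU-029 groups, and GRHL1 parts both.

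In JHU-029 cells, knockdown raised 4 members: FLG, GRHL1, SCEL and EMP1, by 1.29-fold to 1.43-fold. None fell by limma, and 3 were lower at an unadjusted p under 0.05. The 4 genes are 10.5% of the members, against 1.8% of all genes higher and 1.35% lower (3.15% either way). With dim genes left out the shares were alike, at 2 of 19 members (10.5%) against 10.0% of 10205 genes. FLG and SCEL were among the dim genes left out. All 3 knockdown arrays lay above the control arrays in 4 members and below them in 4, against 13.3% of all genes above and 11.7% below. The median difference of the members was −0.00, against 0.00 for all genes, so the rest of the set lay on both sides of no change.

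FLG measured 6.74, 6.76 and 6.72 in JHU-029 shTP63 arrays, against 6.08, 6.15 and 6.44 in JHU-029 shControl arrays. The knockdown arrays were close together and above every control array, and the log2 difference was 0.52 ± 0.09 (SE; adjusted p = 0.00891). Without JHU-029 shControl array 2 the adjusted p was 0.0514. SCEL encodes sciellin, another envelope precursor. It measured 4.49, 4.80 and 4.76 in JHU-029 shTP63 arrays and 4.21, 4.27 and 4.22 in JHU-029 shControl arrays, a log2 difference of 0.45 ± 0.11 (SE; adjusted p = 0.0432). SCEL was close to the threshold: the adjusted p exceeded it in 14 of 22 alternatives, 9 of which left out a single array, and reached 0.182. With 16 added to the linear values before the logarithm the difference was 0.26.

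EMP1, a small membrane protein of the peripheral myelin protein family, measured 10.64, 10.71 and 10.69 in JHU-029 shTP63 arrays, against 10.33, 10.31 and 10.28 in JHU-029 shControl arrays. Its spread was small in both groups, and the log2 difference was 0.37 ± 0.05 (SE; adjusted p = 0.00142). GRHL1 measured 7.06, 7.24 and 7.33 in JHU-029 shTP63 arrays and 6.85, 6.64 and 6.64 in JHU-029 shControl arrays, a log2 difference of 0.50 ± 0.08 (SE; adjusted p = 0.00606). It was the 1 member of 38 that passed in the same direction in both lines, while 28 passed in neither. The matching counts over all genes were not made. Taken singly, 26.6% of all genes passed in FaDU and 3.15% in JHU-029. With replicate number fitted as a block within each line, the JHU-029 call of GRHL1 was lost (limma adjusted p = 0.0667).

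The other 3 transcription factors did not pass in JHU-029. KLF4 measured 9.30, 9.39 and 9.43 in JHU-029 shTP63 arrays and 9.42, 9.36 and 9.36 in JHU-029 shControl arrays, and its log2 difference was −0.00 (95% interval −0.18 to 0.17). OVOL1 measured 8.27, 8.42 and 8.28 in JHU-029 shTP63 arrays and 8.36, 8.46 and 8.37 in JHU-029 shControl arrays, with a difference of −0.07 (95% interval −0.22 to 0.07). ZNF750 measured 5.33, 5.25 and 5.40 in JHU-029 shTP63 arrays and 5.43, 5.31 and 5.35 in JHU-029 shControl arrays, with a difference of −0.04 (95% interval −0.24 to 0.16). In all 3 the groups overlapped.

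None of the 4 suprabasal keratins passed in JHU-029 by limma, and 1 was lower at an unadjusted p under 0.05. That keratin was KRT1, at 7.72, 8.06 and 7.89 in JHU-029 shTP63 arrays and 8.25, 8.11 and 8.19 in JHU-029 shControl arrays, a log2 difference of −0.29 (adjusted p = 0.232). KRT10 had a difference of −0.18 and KRT13 one of 0.12. Of the envelope precursors, the 11 that did not pass had differences between −0.31 in SPRR2A and 0.20 in SPRR2B. CNFN, encoding cornifelin, had a difference of −0.22 (adjusted p = 0.333).

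The test of whether the knockdown effect differed between the lines (the FaDU effect minus the JHU-029 effect) passed for 6 members, 15.8% of the set, against 13.2% of all genes (4.97% higher and 8.25% lower). The effect was higher in FaDU for SLPI by 1.13 ± 0.14, for CEACAM6 by 0.86 ± 0.15 and for PPL by 0.58 ± 0.12 log2 units (SE; adjusted p = 0.000339, 0.00284 and 0.00686). It was lower in FaDU for KRT13, with a difference of effects of −0.64 ± 0.14, for FLG, with −0.51 ± 0.13, and for EMP1, with −0.35 ± 0.07 (adjusted p = 0.0107, 0.0196 and 0.0049). The share of members was near that of all genes. KRT13 lost the call without both FaDU control arrays titled "new" (adjusted p = 0.0995), and FLG lost it there and without JHU-029 shControl array 2 (adjusted p of up to 0.11).

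The JHU-029 effects behind those tests were small for the genes that moved in FaDU: 0.17 for SLPI, 0.09 for CEACAM6, 0.04 for PPL and 0.12 for KRT13. The FaDU effects were 0.00 for FLG and 0.02 for EMP1. The rise of SCEL in JHU-029 was not shown to differ from the FaDU effect of 0.27, with a difference of −0.18 (95% interval −0.52 to 0.15). For GRHL1, the gene that rose in both, the effects differed by 0.13 (95% interval −0.12 to 0.38). KLF4 stood near the threshold, with a difference of 0.37 ± 0.11 (SE; adjusted p = 0.0554), and passed in 6 alternatives, with an adjusted p between 0.0225 and 0.117 over all of them.

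More members differed between the lines than after knockdown in either, and so did more of all genes. After knockdown, 26.6% of all genes had passed in FaDU and 3.15% in JHU-029. Between control cells, 26 of the 38 members passed, 68.4%, near the 63.8% of all genes. Of these, 17 were lower in FaDU than in JHU-029 control cells and 9 were higher, against 30.4% and 33.4% of all genes. The FaDU control arrays lay wholly above the JHU-029 control arrays in 10 members and wholly below them in 15, against 36.6% and 32.4% of all genes. Line, culture medium and any difference in handling cannot be told apart in this comparison.

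**Figure D3:**
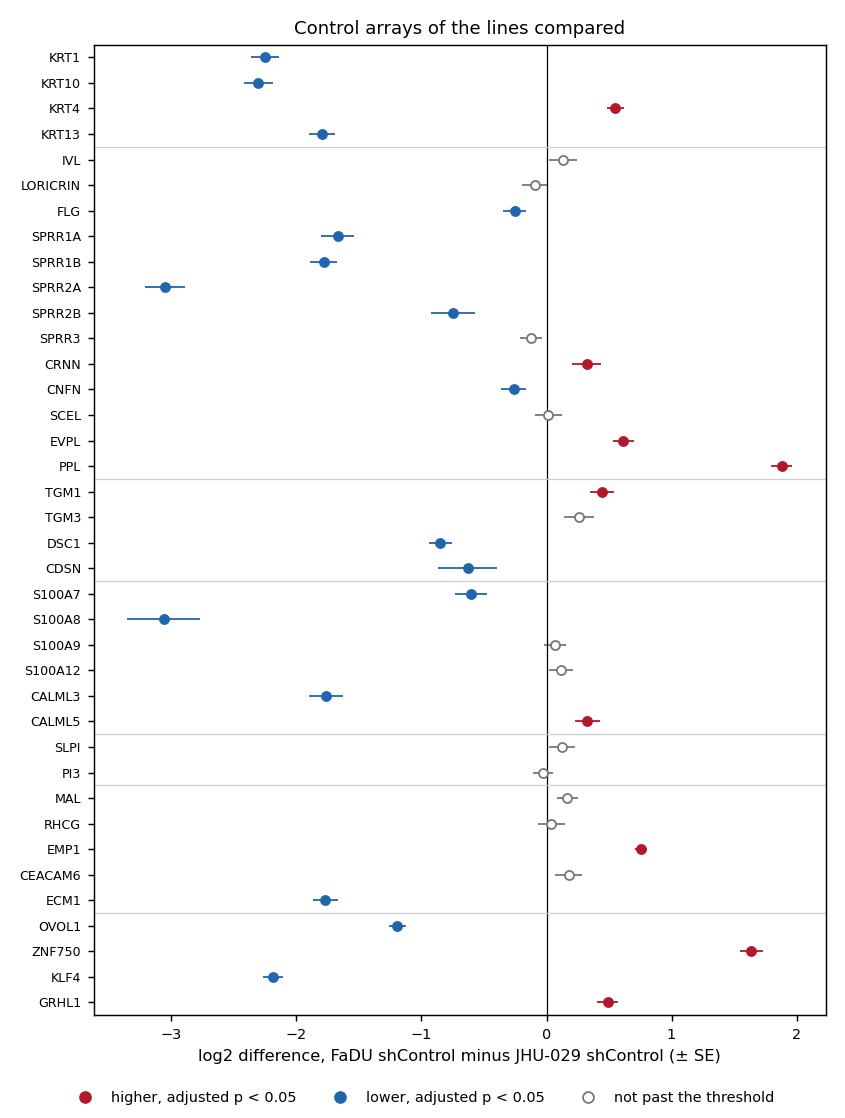
Log2 difference between the control arrays of the lines, FaDU shControl minus JHU-029 shControl, for the 38 members, with bars of ± SE and rows grouped by role. Differences run from −3.06 in S100A8 to 1.88 in PPL; the filled blue points (lower in FaDU) include KRT1, KRT10, KRT13 and the SPRR1 and SPRR2 genes.

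S100A8 and SPRR2A had the most negative differences. S100A8 measured 4.11, 5.26 and 5.45 in FaDU shControl arrays, against 8.27, 7.78 and 7.96 in JHU-029 shControl arrays, a log2 difference of −3.06 ± 0.29 (SE; adjusted p = 9.12e-07). SPRR2A measured 5.10, 4.67 and 4.62 in FaDU shControl arrays, against 8.06, 7.71 and 7.77 in JHU-029 shControl arrays, a log2 difference of −3.05 ± 0.16 (SE; adjusted p = 2.32e-09). All FaDU values of both genes were below the array median of 6.52, and whether they stood above background was not tested. Without FaDU shControl array 1, the lowest, S100A8 differed by −2.65, and with 16 added to the linear values S100A8 differed by −2.52 and SPRR2A by −2.49. S100A9, which pairs with S100A8 in calprotectin, had a difference of 0.07 (95% interval −0.13 to 0.26).

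The epidermal keratins were lower in FaDU. KRT10 measured 6.46, 6.22 and 6.49 in FaDU shControl arrays and 8.85, 8.61 and 8.63 in JHU-029 shControl arrays, a log2 difference of −2.30 ± 0.12 (SE). KRT1 measured 5.70, 6.12 and 5.96 in FaDU shControl arrays and 8.25, 8.11 and 8.19 in JHU-029 shControl arrays, a log2 difference of −2.25 ± 0.11 (SE). KRT13 was also lower, by a log2 difference of −1.80, while KRT4 was higher by 0.55. All 4 suprabasal keratins passed, 3 lower and 1 higher.

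Of the 13 envelope precursors, 6 were lower in FaDU control cells (SPRR1A, SPRR1B, SPRR2A, SPRR2B, CNFN and FLG) and 3 were higher (PPL, EVPL and CRNN). SPRR1A measured 6.78, 6.90 and 6.29 in FaDU shControl arrays and 8.43, 8.26 and 8.30 in JHU-029 shControl arrays, a log2 difference of −1.67 ± 0.13 (SE). SPRR1B had a difference of −1.78 and SPRR2B one of −0.75. PPL measured 9.88, 9.88 and 9.89 in FaDU shControl arrays, against 8.14, 7.82 and 8.03 in JHU-029 shControl arrays, a log2 difference of 1.88 ± 0.08 (SE; adjusted p = 5.76e-10), or 3.69-fold. Both plakins of the scaffold were higher in FaDU, EVPL by 0.62. IVL, LORICRIN, SPRR3 and SCEL did not pass, with differences between −0.12 and 0.13.

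Among the transcription factors, 2 were lower and 2 higher in FaDU control cells. KLF4 measured 7.01, 7.33 and 7.22 in FaDU shControl arrays, against 9.42, 9.36 and 9.36 in JHU-029 shControl arrays, a log2 difference of −2.19 ± 0.08 (SE; adjusted p = 1.1e-10). OVOL1 was lower by a log2 difference of −1.19. ZNF750 was higher by 1.64, or 3.11-fold, and GRHL1 by 0.49. In KLF4 the gap between the lines was thus larger than the rise of 0.36 after knockdown in FaDU.

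The remaining calls were spread over the roles. CALML3, a calmodulin-like protein of epithelium, had a log2 difference of −1.76, and S100A7, encoding psoriasin, one of −0.60. ECM1, encoding extracellular matrix protein 1, differed by −1.77. DSC1, the desmocollin of the upper epidermis, differed by −0.85 and CDSN by −0.63. EMP1 was higher in FaDU by 0.76, TGM1 by 0.44 and CALML5 by 0.33. The protease inhibitors SLPI and PI3 did not pass, with differences of 0.12 and −0.03. The calls of CALML5, CDSN, CNFN, CRNN, FLG and SPRR2B were lost in at least 1 alternative. Without FaDU shControl array 2 the difference of CDSN was −0.37, without both arrays titled "new" it was −0.13, and its second probe set gave −0.30. Without that pair of arrays SPRR2B differed by −0.45 and CRNN by 0.13, and without JHU-029 shControl array 3 FLG differed by −0.15.

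**Figure D4:**
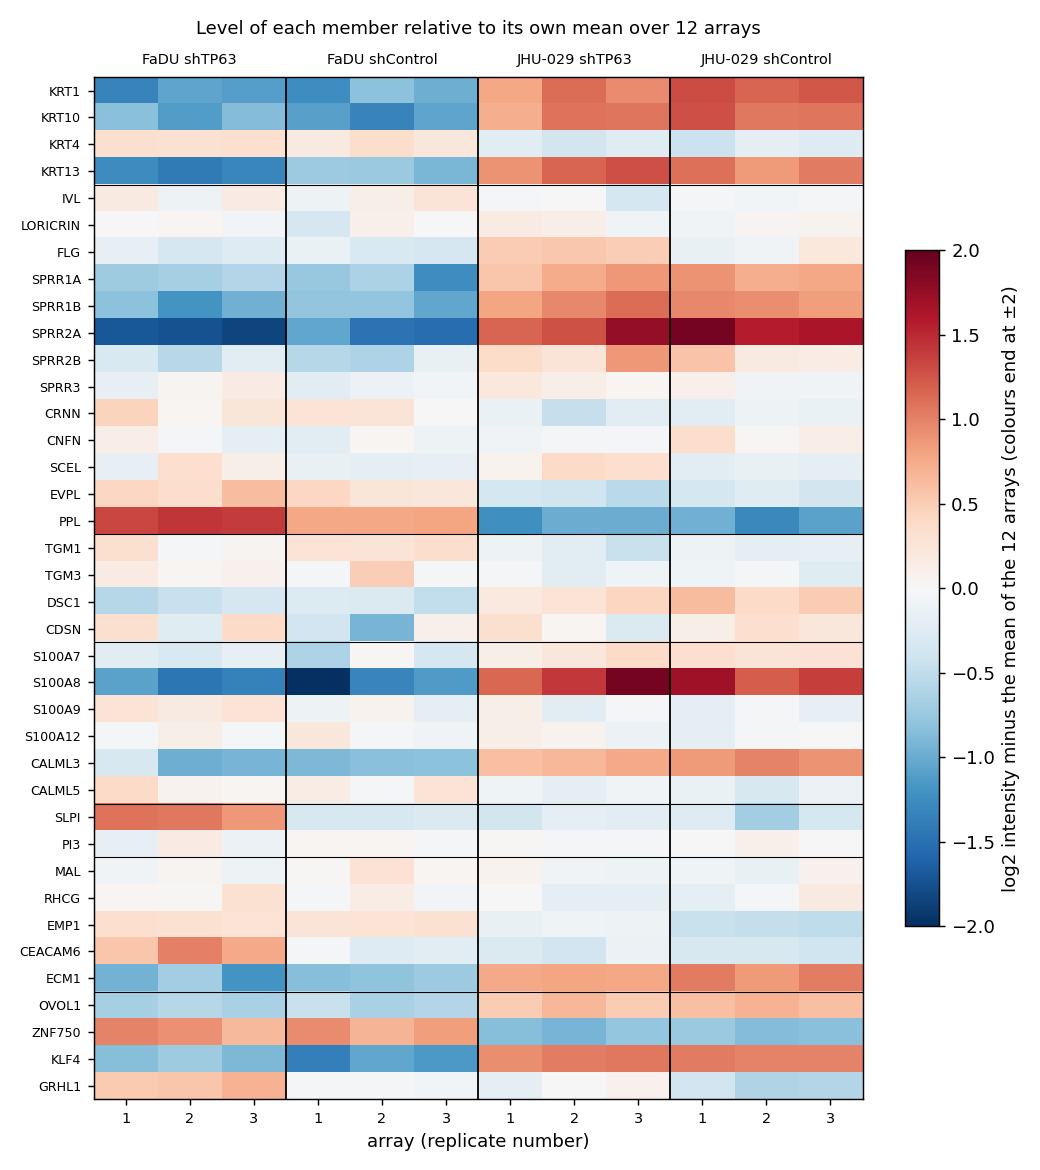
Log2 intensity of each of the 38 members on each of the 12 arrays, as the difference from that member's own mean over the 12 arrays, with columns ordered FaDU shTP63, FaDU shControl, JHU-029 shTP63 and JHU-029 shControl and colours ending at −2 and 2. The colour changes between the lines in KRT1, KRT10, SPRR2A, S100A8, KLF4 and PPL are stronger than those between shTP63 and shControl arrays of a line.

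The group means of 14 members (36.8%) lay below the array median of 6.52 in all 4 groups, against 33.7% of all genes. They were IVL, LORICRIN, SPRR2B, SPRR3, CRNN, SCEL, TGM3, DSC1, S100A7, S100A12, PI3, MAL, RHCG and CEACAM6. The genes of involucrin and loricrin are both in that group, while KRT13, SPRR1A, SPRR1B and PPL had means above the median in all 4 groups. The share of members was near that of all genes, and whether low signals stood above background was not tested. Of the 14, CEACAM6 passed in FaDU and SCEL in JHU-029.

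The genes were also compared by place in the genome. On chromosome 1, 13 members lie between FLG and S100A7, inside the epidermal differentiation complex, a cluster of genes for envelope and S100 proteins. After knockdown in FaDU, 1 of these 13 rose (S100A9) and 0 fell, with 1 lower at an unadjusted p under 0.05, while 5 of the other 25 members rose and 1 fell. Of all genes, 12.4% rose and 14.2% fell. In JHU-029, 1 of the 13 rose (FLG) and 0 fell, at an unadjusted p under 0.05 too, and 3 of the other 25 rose, against 1.8% of all genes higher and 1.35% lower. The same stretch holds 33 other measured genes, and 0 of them passed the limma threshold in either line. At an unadjusted p under 0.05, 1 of the 33 was higher and 3 were lower in FaDU, and 0 were higher and 1 was lower in JHU-029. Between control cells, 7 of the 13 members were lower and 1 higher in FaDU than in JHU-029, against 7 lower and 8 higher of the 33 other genes and 30.4% lower and 33.4% higher of all genes.

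The TGANTCA pattern shown above, wider than the usual AP-1 sequences, was counted in the 250 bases before the start of every gene in the RefSeq promoter table. It was present in 12 of the 28 members in that table (42.9%), against 8.06% of 27305 genes in the table and 7.06% of the 14230 that were also tested on the arrays. The 12 were IVL, LORICRIN, FLG, SPRR1A, SPRR1B, SPRR2A, SPRR3, CRNN, SCEL, S100A12, EMP1 and ECM1. By place, 9 of the 13 members in the chromosome 1 stretch held it (69.2%), and 3 of the 15 others (20%). Of the members that rose or fell after knockdown, FLG, SCEL and EMP1 held a match, CEACAM6, S100A9, KLF4 and GRHL1 held none in this window, and SLPI, PPL and KRT13 are not in the table. The other 9 members with a match passed in neither line. These counts describe letters in a window and no test was made of them.

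Other genes of the programme were read from a list of 89, of which 85 were measured. In FaDU shTP63 cells 16 of the 85 rose and 6 fell, against 12.4% of all genes higher and 14.2% lower, with a median log2 difference of 0.01. The largest rises were those of UGCG (1.10), which encodes the enzyme of the first step to glucosylceramides of the skin barrier, CST6 (0.88), encoding cystatin M/E, and PRDM1 (0.65), encoding the repressor BLIMP1. The largest falls were those of CSTA (−0.93), an envelope protein and protease inhibitor, CDKN1A (−0.69), a cell cycle inhibitor, and PKP1 (−0.64), a desmosomal plaque protein.

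In JHU-029 shTP63 cells 3 of the 85 rose and 3 fell, against 1.8% and 1.35% of all genes, with a median of 0.00. TMPRSS11E (0.80), a membrane serine protease, CLDN1 (0.80), a tight junction claudin, and KRT80 (0.72), a keratin, rose. DSG1 (−0.46), a desmosomal cadherin, BARX2 (−0.30), a homeobox factor, and KLF5 (−0.29), a Krüppel-like factor, fell. CLDN1 and KRT80 rose in FaDU as well, by 0.29 and 0.35. The basal keratin KRT5 fell in FaDU by 1.41 on the log2 scale and KRT14 by 0.43, while in JHU-029 their differences were −0.11 and −0.05 and did not pass.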

How the data were processed

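Total RNA from 12 samples was measured on single-colour arrays, 3 per group. The authors deposited linear intensity values made with RMA in R 2.15.1, per the submitters' processing notes; the probe set definitions and whether the arrays were normalised jointly are not given in the sources used here. From these, log2 values were taken without further normalisation. Of 32321 probe sets, 19158 had 1 gene symbol in the platform annotation, 1388 had several and 11775 were unnamed; each of 18404 genes was represented by its probe set with the highest mean. limma 3.58.1 in R 4.3.3 fitted 4 group means to all 12 arrays (8 residual degrees of freedom), with Benjamini-Hochberg adjustment over all genes at 0.05, no fold limit and no filter on dim genes. The procedure was tested on simulated data. Groups and replicate numbers came from the labels. Named were every member past the threshold, all transcription factors, array values for the largest changes, and the 3 largest rises and falls of the other list in each line. The members and lists were chosen with earlier results of these data known. In all, 24 alternatives in scaling, filter, probe set choice, replicate block and arrays left out were run.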

Additional observations from a re-analysis of the deposited data

Results flagged for a closer look

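For 6 members the test of the difference between the knockdown effects in the lines, FaDU effect minus JHU-029 effect, passed the threshold in the limma fit. They are 15.8% of the members, near the 13.2% of all genes that passed. The calls of KRT13 and FLG were lost in at least 1 alternative. On the log2 scale the difference was 1.13 for SLPI (1.31 in FaDU and 0.17 in JHU-029), 0.86 for CEACAM6 (0.94 and 0.09) and 0.58 for PPL (0.61 and 0.04). It was −0.64 for KRT13 (−0.52 in FaDU and 0.12 in JHU-029), −0.51 for FLG (0.00 and 0.52) and −0.35 for EMP1 (0.02 and 0.37). With 3 arrays per group, no test for single outlying arrays was made.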

How the results depend on the processing

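No called value changed its direction in any alternative. Calls were counted as kept where they passed in every alternative that tested the gene. Those kept were 5 of 7 in FaDU, 1 of 4 in JHU-029 (EMP1), 4 of 6 for the difference between the effects and 20 of 26 between the control cells. CEACAM6, kept in FaDU and for the difference, was not tested with dim genes left out. Neither were DSC1, S100A7, TGM1 and ZNF750, kept between the control cells. Leaving out 1 array at a time gave 6 to 9 members past the threshold in FaDU, 2 to 4 in JHU-029, 5 to 7 for the difference and 23 to 26 between the control cells. The count of 4 in JHU-029 was 2 with dim genes left out, where 19 members were tested and FLG and SCEL were not among them. It was also 2 without JHU-029 shControl replicate 2. Without both FaDU control arrays titled "new", 7 members passed in FaDU, all higher, 3 in JHU-029, 5 for the difference and 22 between the control cells. The control array left is then assumed to vary like the other groups.

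Replicate numbers did not pair the arrays: deviations of same-numbered arrays correlated at −0.08, −0.07 and 0.01 in FaDU and −0.34, −0.01 and −0.20 in JHU-029. Arrays with other numbers correlated at −0.05 to 0.11 in FaDU and at −0.13 to 0.29 in JHU-029. Blocks by other pairings were not fitted. With a fixed replicate block within each line, 7 members passed in FaDU, 2 in JHU-029 and 6 for the difference, and with a block across the lines 26 passed between the control cells. Under the block within each line the calls of S100A9 in FaDU (adjusted p = 0.0691) and of GRHL1 in JHU-029 (0.0667) were lost, the second of these the only call shared by both lines. Over all genes that block gave 4075 calls in FaDU against 4900, 172 in JHU-029 against 580, and 1395 for the difference against 2433. The JHU-029 count over all genes was 1023 with dim genes left out, 1015 with a trend in the variance prior, and 229 to 273 without JHU-029 shTP63 array 2 or 3 or any 1 JHU-029 control array.

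Values near 0 of uncalled transcription factors changed sign. With array medians set equal, KLF4 was 0.00079 in JHU-029 and OVOL1 −0.0140 for the difference between the effects. Over the fits that left out 1 array, ZNF750 ranged from −0.0382 to 0.135 in FaDU and from −0.0771 to 0.00086 in JHU-029, and KLF4 ranged from −0.0297 to 0.0332 in JHU-029. For the difference between the effects, OVOL1 ranged from −0.0407 to 0.0556 and ZNF750 from −2.14e-05 to 0.174. The cause of these changes was not tested. The 3 arrays per group limit the size of difference that could be resolved.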
